A study of Homo sapiens with 24 samples.

Results

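The response of MB468res-R8 cells (R8 below) to 2 h without methionine was measured over all genes, in the 3 libraries taken after 2 h in Met-Hcy+ medium and the 3 libraries of the same cells in Met+ medium (0 h), 6 of the 24 libraries of the series. R8 is 1 clone that came from MDA-MB-468 (MB468), a triple-negative breast cancer line, by prolonged culture in homocysteine medium, and it proliferates where methionine (Met) is replaced by its precursor homocysteine (Hcy). Both media were DMEM with dialysed serum, glutamine, cysteine, and vitamin B12. The Met+ medium held 100 µM Met, and the Met-Hcy+ medium held 370 µM DL-Hcy and no Met. Libraries of R8 at 0.5 h and 12 h in Met-Hcy+ medium and of MB468 at 0 h and 2 h (3 each) are set beside them. No library comes from R8 cells that received fresh Met+ medium for 2 h, so the change of medium and the exchange of Met for Hcy cannot be told apart.

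Of 26645 gene entries in the count table, 14741 passed the expression filter and were tested. The 6 libraries held between 16655060 and 36496655 counts, with 0.251 to 0.291% of them on spike-in RNAs. All 6 epithelial markers were high in every one of the 6 libraries (summed level 6151 to 6374 CPM, counts scaled to a common library total, at 0 h and 6642 to 6957 at 2 h). Among markers of other cells, 5 of 6 fibroblast genes, 4 of 6 leukocyte genes, and 1 of 5 endothelial genes lay under 1 CPM in all 6 libraries, and none was at 0 in all 6. The highest were COL1A1 (54.2 to 72.6 CPM), CD14 (45.8 to 59.9), and the endothelial gene KDR (40.7 to 58.0), while PECAM1 and CDH5 lay between 1.26 and 2.63. The summed endothelial level was 46.0 to 50.1 at 0 h and 58.8 to 62.7 at 2 h, the fibroblast level 54.8 to 72.9 and 58.8 to 65.9, and the leukocyte level 50.5 to 56.6 and 57.5 to 67.7; their part in the results was not tested. Of the receptors that triple-negative lines lack, PGR was at most 0.0975 CPM, while ESR1 was at 8.63 to 11.3 and ERBB2 at 77.3 to 93.7. RNAs without a poly(A) tail took 9.85 to 12.0 CPM at 0 h and 30.3, 32.2, and 9.09 in replicates 1, 2, and 3 at 2 h (exact two-sided permutation p = 0.4, smallest possible 0.1). Replicates 1 and 2 at 2 h stood apart in this measure, and its part in the results was not tested. In MB468 at 2 h, replicate 2 held 1702 CPM, which touches each comparison between the lines. The labels do not say that replicates came from separate cultures, so the p-values measure the spread between these libraries, which may be technical. In such bulk samples, fewer cells with a transcript and less of it per cell cannot be told apart.

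Met is turned into S-adenosylmethionine (SAM), the methyl donor of the cell, by methionine adenosyltransferase, whose catalytic subunit outside the liver is MAT2A. SAM that has given up its methyl group ends as Hcy, which methionine synthase (MTR) remethylates to Met, so cells fed Hcy must make Met themselves. MAT2A is the known SAM-regulated transcript of this cycle: the methyltransferase METTL16 binds short stem-loops in the 3′ UTR of its mRNA, and the mRNA is spliced and kept better when SAM is low. A change of medium with serum is also known to set off immediate early genes, which code for transcription factors and feedback proteins and rise and fall again within hours.

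Few genes differed between 0 h and 2 h in R8, and by little. At 2 h, 644 of 14741 genes were called (4.37%) at an adjusted p under 0.05 (edgeR quasi-likelihood, Benjamini-Hochberg), 372 of them higher (2.52%) and 272 lower (1.85%). Only 57 of them had changed at least 2-fold, and 495 of 644 by less than 1.5-fold. The median absolute log2 fold change of the called genes was 0.34. More genes were called against 0 h at the other times, 4967 of 14741 at 0.5 h and 9036 at 12 h. The 3 libraries of each group did not overlap for 621 of the 644, against 17.8% of all tested genes. Small p values from the same libraries pick such genes, so this only describes the 644. The count rests in part on single libraries: it was 348 without 2 h replicate 2, 410 without 0 h replicate 3, and 134 with 2 h replicate 3 as the only library at 2 h. Scaling on the spike-ins instead of TMM gave 180. A fit of only the 2 groups compared, whose spread then comes from these 6 libraries alone, gave 551.

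**Figure D1:**
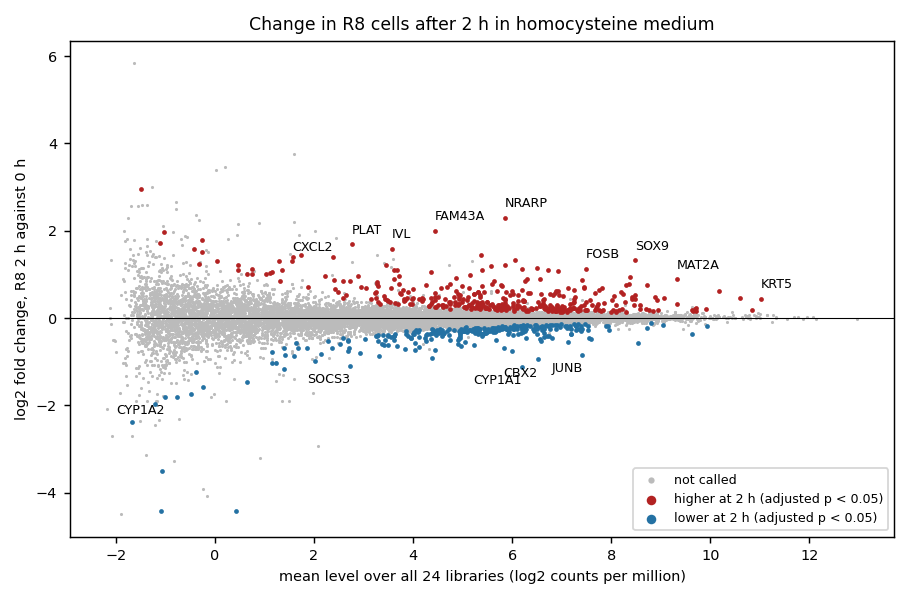
Log2 fold change of R8 at 2 h against 0 h (vertical axis) by the gene's mean level over all 24 libraries (log2 CPM, horizontal axis) for 14741 tested genes. Red points are the 372 genes called higher, blue points the 272 called lower, and most called genes lie within 1 log2 unit of 0, with NRARP (2.30) and FAM43A (2.00) highest among the well expressed ones.

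MAT2A had the smallest p of all tested genes, and it rose. It is on chromosome 2 (85539168 to 85545281, GRCh38), and the 3′ UTR of its mRNA, all in exon 9, is shown by the stretches that hold the letters METTL16 is known to bind. Searching the 1509 bases of this UTR on the transcript's strand for TACAGAGAA and TACAGAAAA found 6 matches, in capitals here with 9 bases on either side, written as DNA from GENCODE's transcript.
Site 1 (chr2:85543803-85543829): ggcgtaggcTACAGAGAAgccttcaag
Site 2 (chr2:85544590-85544616): gtgatgtcaTACAGAGAAgtcacaggg
Site 3 (chr2:85544775-85544801): tggtgtagcTACAGAGAAaccagcttc
Site 4 (chr2:85544890-85544916): tggcgtaagTACAGAGAAgccatcacc
Site 5 (chr2:85545005-85545031): aaggtgtccTACAGAAAAaccttgggt
Site 6 (chr2:85545113-85545139): ctggtgtggTACAGAGAAgccagcttg
Among the first 1509 bases of 7692 canonical 3′ UTRs at least that long, 4.20% held 1 match or more, and MAT2A was the 1 that held as many as 6. The match describes the letters of the transcript, not binding in these cells.

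MAT2A had 9386, 9982 and 8898 normalised counts in the 3 libraries at 0 h and 16894, 17797 and 17937 at 2 h (log2 fold change 0.90, SE 0.0472, adjusted p = 2.76e-16, edgeR quasi-likelihood). A normalised count is the count divided by the library's TMM-scaled size and multiplied by the mean size, and a value in brackets after a gene is its log2 fold change, 2 h against 0 h in R8, unless another quantity is named. The libraries at 2 h lay close together and above every library at 0 h, a rise of 1.86-fold. At 0.5 h, MAT2A had been at 7191, 6336 and 6374, under every library at 0 h, and the 2 h level was above it by 1.40 (adjusted p = 7.24e-24). In MB468 the same gene went from 8616, 8652 and 9040 to 17423, 19384 and 18187, and the difference between the lines was -0.17 (adjusted p = 0.169).

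None of the other 14 tested genes of the Met cycle was called. Over all genes 4.37% were called, a share at which a list of this size would hold few calls or none. METTL16 itself had 1312 ± 22.7 normalised counts at 0 h and 1373 ± 56.1 at 2 h (SD, n = 3; log2 fold change 0.06), MTR had -0.15 and the adenosylhomocysteinase AHCY 0.05, and the list's median was 0.04 against 0.00 over all tested genes. Of 15 Met salvage and polyamine genes, 1 was called (6.67% against 4.37% of all genes). This was SAT1, the acetyltransferase that starts polyamine breakdown. It had 4090, 3930 and 3692 normalised counts at 0 h and 6752, 7095 and 5949 at 2 h (log2 fold change 0.76, adjusted p = 2.25e-09). None of 10 folate one-carbon enzymes was called (range -0.07 to 0.14 on the log2 scale), which is near the share over all genes.

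**Figure D2:**
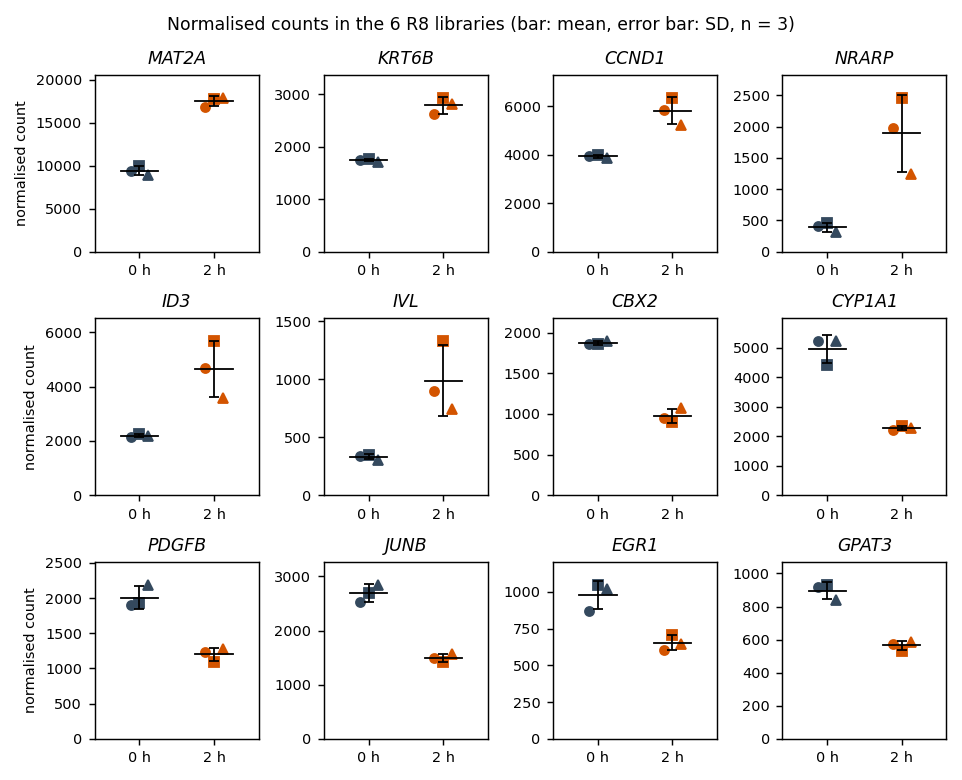
Normalised counts (vertical axes, starting at 0) of 12 genes in the 6 R8 libraries at 0 h and 2 h; circles, squares, and triangles are replicates 1, 2, and 3, the bar is the mean and the error bar the SD (n = 3). MAT2A, KRT6B, CCND1, CBX2, CYP1A1, PDGFB, JUNB, and GPAT3 show tight groups, while at 2 h NRARP, ID3, and IVL spread widely, with replicate 3 the lowest.

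Keratins were among the genes that rose. They are the intermediate filament proteins of epithelia, and 7 of 19 tested ones were called higher and 0 lower. This is 36.8% against 4.37% of all genes (median 0.17 against 0.00), with values from -0.74 to 0.78. In MB468, where 16.3% of all genes were called, 8 were higher and 0 lower (median 0.16). KRT6B, a keratin of stressed and wounded epidermis on chromosome 12 (52446651 to 52452146), had 1748, 1762 and 1718 normalised counts at 0 h and 2625, 2938 and 2808 at 2 h (0.68, adjusted p = 4.28e-12). KRT5, the basal cell keratin, had 39182, 38879 and 35936 at 0 h and 49788, 54542 and 50567 at 2 h (0.44). Both genes had groups that did not overlap, and both had been lower at 0.5 h than at 2 h, by 1.76 and 0.56 on the log2 scale. KRT17 (0.62) and KRT16 (0.48), also keratins of wounded skin, were called as well, KRT17 not in the fit of only the groups compared, and so were the simple-epithelium keratins KRT8 (0.18) and KRT18 (0.20). KRT6A (0.49, adjusted p = 0.0494) was called in 3 of its 16 alternative analyses, and reads of KRT6A, KRT6B, and KRT6C, which are nearly identical, may have been split among them. The rise of KRT6A was smaller than in MB468 (difference -1.39, adjusted p = 0.000313, edgeR quasi-likelihood). KRT14, KRT7, and KRT19 had 0.16, 0.04, and 0.13 and were not called. The count of 7 became 4 without 2 h replicate 2 and 2 (KRT6B and KRT17) with spike-in scaling.

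IVL, the involucrin of the cornified envelope, had 342, 342 and 306 normalised counts at 0 h and 896, 1327 and 742 at 2 h (1.59, adjusted p = 1.81e-09). Further genes of this kind were picked out after their values were seen and so are only described. The desmosome genes DSP and DSG3 had log2 fold changes of 0.46 and 0.45, SFN (14-3-3 sigma) 0.50, KRT75 1.19, S100A7 0.40, the elafin gene PI3 0.41, and the laminin gene LAMB3 0.25, each called. ZNF750, a transcription factor of epidermal differentiation, had 770.0, 794 and 460.2 at 0 h and 1763, 2083 and 1230 at 2 h (1.33, adjusted p = 0.000447). Its rise was smaller than in MB468 (difference -1.65, adjusted p = 0.00193, edgeR quasi-likelihood). In each group of ZNF750, replicate 3 was the lowest. In the fit of only the groups compared, IVL, SFN, and ZNF750 were not called. With spike-in scaling DSP, DSG3, S100A7, PI3, and LAMB3 were not called. LAMB3 was called in 12 of its 17 alternatives, not without 0 h replicate 3 or 2 h replicate 2.

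Among the called genes of at least 1 CPM with groups that do not overlap, NRARP had the largest rise. NRARP is a feedback inhibitor that Notch signalling itself induces. It had 404, 453 and 309.9 normalised counts at 0 h and 1985, 2465 and 1241 at 2 h (2.30, SE 0.22, adjusted p = 2.28e-06). The spread at 2 h was wide, with replicate 3 lowest. That the groups were apart was a condition of the choice. At 0.5 h NRARP had already reached 2268, 2199 and 2484, and the step from 0.5 h to 2 h was not called (-0.26, adjusted p = 0.31). FAM43A had 205, 252 and 221 at 0 h and 968, 1119 and 568 at 2 h (2.00), again with replicate 3 the lowest at 2 h. In the fit of only the groups compared, the adjusted p was 0.0513 for NRARP and 0.0643 for FAM43A, so that neither was called there.

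Singled out after their values were seen were the Notch ligand gene JAG1 (1260, 1373 and 1326 at 0 h, 2709, 3412 and 2538 at 2 h, 1.14) and the HES-family genes HEY2 (1.10), HES2 (1.22), and HES4 (0.58), all called higher. No list of Notch genes was counted, so these genes do not describe the pathway. HES2 was not called without 2 h replicate 2, nor HES4 without 0 h replicate 3 or 2 h replicate 1. The transcription factor SOX9, chosen the same way, had 2934, 3188 and 2632 and 7425, 8735 and 5776 (1.33, adjusted p = 2.36e-07). CEBPA, also chosen after its values were seen and coding for a transcription factor of differentiation, had 185, 210.3 and 179 at 0 h and 421, 441 and 360.3 at 2 h (1.10), and its rise was larger than in MB468 by 1.18 (adjusted p = 9.45e-07).

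The ID genes code for inhibitors of basic helix-loop-helix factors and are known targets of BMP signalling. Of 17 ID and TGF-beta feedback genes, 7 were called higher and 1 lower, 47.1% against 4.37% of all genes (median 0.09). The 7 include all 4 ID genes. ID4 had 231, 289.7 and 235 normalised counts at 0 h and 621, 550.1 and 464 at 2 h (1.13, adjusted p = 1.69e-07), and ID3 had 2137, 2240 and 2184 and 4679, 5674 and 3589 (1.10). Neither gene's groups overlapped, whereas those of ID1 did (74.5, 83.9 and 52.3 against 130.1, 127 and 71.5, 0.66, adjusted p = 0.0458). SMAD7 and SMAD6, the inhibitory Smads, had -0.25 and -0.21 and were not called. The count of 8 in this list fell to 2 without 2 h replicate 2 and to 4 without 0 h replicate 3, so most of it rests on these libraries. With spike-in scaling it was 3, and in the fit of only the groups compared ID1 and ID3 were not called.

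Other genes with the smallest p among those that rose act in growth, survival, and trafficking. CCND1, the cyclin D1 of the G1 phase, had 3967, 3971 and 3868 normalised counts at 0 h and 5837, 6355 and 5241 at 2 h (0.57, adjusted p = 2.07e-11). MCL1, an inhibitor of apoptosis of the BCL2 family, had 8112, 8280 and 8872 and 11773, 12363 and 11170 (0.48). For both genes the groups were apart. PIK3R3, a regulatory subunit of PI 3-kinase, rose by 0.55, the pseudokinase gene TRIB2 by 0.55, RAB11FIP1, an effector of recycling endosomes, by 0.60, the intramembrane protease gene SPPL3 by 0.64, and MYEOV by 0.68 on the log2 scale. Of these, MYEOV (0.50), SPPL3 (0.32), TRIB2 (0.29), and MCL1 (0.23) rose more in R8 than in MB468, as tested by the difference between the lines. The difference of MCL1 was called in 17 of its 21 alternatives, not without R8 0 h replicate 1, R8 2 h replicate 2, or MB468 0 h replicate 3. That of TRIB2 was not called without MB468 0 h replicate 2. PLAT, the tissue plasminogen activator, had 132, 107 and 106 at 0 h and 355, 461 and 306 at 2 h (1.70), and IGFL1, a secreted protein of the insulin-like growth factor-like family, had 392, 369 and 454 and 983, 1220 and 1092 (1.45). UNC13A, a gene of synaptic vesicle priming, was at low counts (20.6, 11.2 and 15.7 against 46.9, 58.2 and 39.3, 1.59) and was not called without 2 h replicate 2. In the list of 22 cyclins and CDK inhibitors, 18.2% were called against 4.37% of all genes. CDKN1A (0.60) and CDKN2B (0.28), which code for inhibitors p21 and p15, rose beside CCND1, and CCNE1 fell (-0.20). CDKN1A and CCNE1 were not called in the fit of only the groups compared.

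Of the genes that fell, CBX2 had the smallest p. CBX2, on chromosome 17 (79777311 to 79787983), is a chromodomain subunit of Polycomb repressive complex 1 that reads methylated histone H3. It had 1860, 1862 and 1895 normalised counts at 0 h and 955, 902 and 1075 at 2 h (-0.95, SE 0.0551, adjusted p = 4.76e-16). The groups were far apart, and at 0.5 h it had still been at 1935, 1931 and 1896. MB468 fell from 2251, 2144 and 2100 to 1074, 1065 and 1028, with a difference between the lines of 0.09 (adjusted p = 0.666). None of the other 17 tested subunits and partners of the complex was called (list median -0.06), the paralog CBX8 among them (0.09). With 4.37% of all genes called, this count says nothing particular of the list. Of 35 histone lysine methyltransferases and demethylases, 0 rose and 3 fell, 8.57% against 4.37% of all genes. They were SETD1B (-0.30) and KMT2A (-0.31), which methylate H3 lysine 4, and KDM3A (-0.27), a demethylase of H3 lysine 9. These 3 were not called without 2 h replicate 2 or with spike-in scaling. None of 19 genes of RNA methylation was called, which is also near the share over all genes.

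Targets of the aryl hydrocarbon receptor (AHR) were among the genes that fell. AHR is a ligand-activated transcription factor that, with ARNT, binds the xenobiotic response element and induces cytochromes P450 of family 1. Of 10 tested genes of the pathway, 0 rose and 4 fell, 40.0% against 4.37% of all genes (median -0.22 against 0.00). CYP1A1 (chromosome 15, 74719542 to 74725528, minus strand) had 5216, 4402 and 5216 normalised counts at 0 h and 2195, 2338 and 2284 at 2 h (-1.12, adjusted p = 3.6e-15). CYP1B1 had 27382, 26894 and 28074 and 21759, 21497 and 21138 (-0.35, adjusted p = 5.17e-08). Neither overlapped, and both had been lower still at 0.5 h (CYP1A1 815, 856 and 969, CYP1B1 13323, 12808 and 13154). CYP1A2 was low (28.5, 28.0 and 45.8 against 7.46, 11.0 and 9.81, -1.80). TIPARP, a feedback inhibitor of the receptor, had 3191, 2756 and 3148 at 0 h and 2274, 2053 and 2264 at 2 h (-0.47, adjusted p = 0.0129). TIPARP was called in 12 of its 17 alternatives, not without 0 h replicate 1, 0 h replicate 3, or 2 h replicate 2. With spike-in scaling CYP1B1 was not called. AHR itself (0.05), ARNT (0.04), and NQO1 (-0.02), a target it shares with other factors, were not called. CYP1A1 fell less in R8 than in MB468 (difference 0.52, adjusted p = 0.000196), and TIPARP, which rose in MB468 from 2563, 2295 and 2593 to 3925, 4148 and 4505, differed by -1.23.

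The promoters of CYP1A1 and TIPARP (250 bases before and 50 after the start, RefSeq on GRCh38.p14) are shown because both genes fell in R8. Capitals mark the core of the xenobiotic response element, GCGTG, or CACGC where it lies on the other strand.
CYP1A1 (chr15:74725479-74725778, minus strand): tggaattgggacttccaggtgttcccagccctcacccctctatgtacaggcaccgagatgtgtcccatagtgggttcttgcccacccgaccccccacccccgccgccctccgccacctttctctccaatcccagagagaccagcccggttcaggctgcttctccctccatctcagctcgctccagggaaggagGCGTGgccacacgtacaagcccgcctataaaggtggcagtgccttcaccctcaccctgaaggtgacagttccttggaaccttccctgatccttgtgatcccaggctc
TIPARP, first of 3 listed starts (chr3:156674340-156674639, plus strand): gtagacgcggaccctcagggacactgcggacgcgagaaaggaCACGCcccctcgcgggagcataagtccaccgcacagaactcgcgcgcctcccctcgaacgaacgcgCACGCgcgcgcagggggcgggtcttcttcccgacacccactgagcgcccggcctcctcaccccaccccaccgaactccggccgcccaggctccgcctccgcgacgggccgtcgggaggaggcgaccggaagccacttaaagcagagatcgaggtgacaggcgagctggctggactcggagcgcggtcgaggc
CYP1A1 held 1 match, 57 bases before the start, and TIPARP 2, while the promoters of the other 2 starts of TIPARP held 0. The 5 letters are common: 49.6% of the 11214 promoters found for the 14741 tested genes held 1 or more, and 19.2% held 2 or more. A match is no evidence of binding.

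Among growth factors and their receptors, 0 of 16 rose and 4 fell, or 2 without 2 h replicate 2 or with spike-in scaling. PDGFB, a platelet-derived growth factor chain, had 1902, 1931 and 2190 normalised counts at 0 h and 1229, 1095 and 1272 at 2 h (-0.75, adjusted p = 1.44e-12), with no overlap. PDGFA had -0.53, VEGFA -0.28, and the EGFR ligand EPGN -0.40 (adjusted p = 0.0485, called in 5 of its 16 alternatives). EGFR, which is amplified in MDA-MB-468, had 71258 ± 2285 and 69903 ± 2435 (SD, n = 3) and was not called (-0.03). Other genes with the smallest p among those that fell were CHAMP1 (-0.53), a zinc finger protein of chromosome alignment, the endocytosis gene SH3BP4 (-0.37), the ligand gene WNT7B (-0.42), and ADM, which codes for the vasodilator adrenomedullin (-0.60). ADM had 1426, 1476 and 1251 at 0 h and 869, 861 and 1021 at 2 h, and its change differed from that in MB468 (0.22) by -0.83 (adjusted p = 3.59e-07). SOCS3, a feedback inhibitor of cytokine receptors, had 199, 201 and 219.7 and 85.3, 69.2 and 149 (-1.10), the homeobox gene LHX4 -1.03, ZNF296 -0.98, and LOC100506127 -1.16. Among 26 genes of phospholipid and triglyceride synthesis 2 were called, 7.69% against 4.37% of all genes. GPAT3, an acyltransferase at the start of glycerolipid synthesis, had 918, 932 and 839 at 0 h and 575, 532 and 587 at 2 h (-0.67, adjusted p = 1.02e-06, edgeR quasi-likelihood). The other, LPIN2, had 0.26 and was called in 4 of its 17 alternatives.

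**Figure D3:**
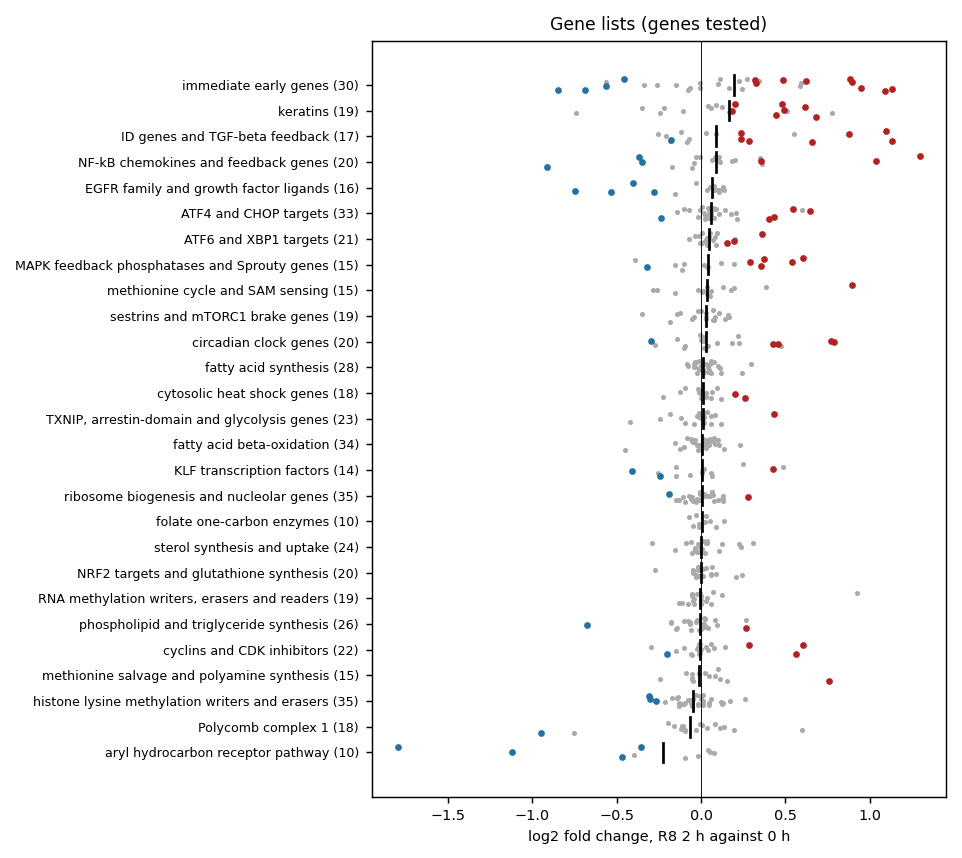
Log2 fold change of R8 at 2 h against 0 h for the tested genes of 27 lists (number tested in brackets), ordered by median (black bar); red and blue points are genes called higher and lower, grey points genes not called. The medians lie between -0.22 (aryl hydrocarbon receptor pathway) and 0.19 (immediate early genes), and the lists of sterol, fatty acid, and folate genes hold no called gene.

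Immediate early genes differed between R8 and its parental line. In R8 at 2 h, 9 of 30 tested ones were above and 4 below their 0 h level, 43.3% against 4.37% of all genes (median 0.19). In MB468, 27 were above and 0 below (median 1.14), where 16.3% of all genes were called. The R8 counts were 6 and 7 in the fit of only the groups compared and 5 and 4 with spike-in scaling, so the balance of higher over lower was not kept. Tested directly, the response was lower in R8 for 23 of the 30 and higher for 1, MCL1 (5.07% of all genes were called in this test, the median over all genes being 0.00), and 22 and 1 without MB468 2 h replicate 2. With spike-in scaling, where the median difference of all genes moved to 0.38, 13 were lower and 1 higher, and the list's median stayed 1.06 below that of all genes under either scaling.

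EGR1, a zinc finger transcription factor on chromosome 5 (138465479 to 138469303), had 869, 1048 and 1019 normalised counts at 0 h, 17628, 19103 and 20082 at 0.5 h, and 607, 707 and 644 at 2 h in R8 (2 h against 0 h -0.57, adjusted p = 0.00644). In MB468 it stood at 994, 966 and 866 at 0 h and still at 12517, 13172 and 12716 at 2 h, and the difference between the lines was -4.32 (SE 0.15, adjusted p = 1.13e-12). The libraries of the lines overlapped at 0 h and were far apart at 2 h. Its promoter is shown with the CArG boxes, the sites of serum response factor, in capitals.
EGR1 (chr5:138465229-138465528, plus strand): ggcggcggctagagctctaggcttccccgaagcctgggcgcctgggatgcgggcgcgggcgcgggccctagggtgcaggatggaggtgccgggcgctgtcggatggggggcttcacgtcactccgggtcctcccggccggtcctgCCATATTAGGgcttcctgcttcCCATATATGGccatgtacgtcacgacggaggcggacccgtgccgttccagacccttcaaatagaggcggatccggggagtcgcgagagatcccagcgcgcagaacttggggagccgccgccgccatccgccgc
It held 2 CArG boxes, 105 and 83 bases before the start, and 1.03% of the 11214 promoters held any.

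JUNB, an AP-1 subunit, had 2533, 2704 and 2848 normalised counts at 0 h and 1501, 1425 and 1573 at 2 h (-0.85, adjusted p = 5.32e-10) after 8609, 9749 and 10636 at 0.5 h, and differed between the lines by -1.99. ZFP36, whose product destabilises AU-rich mRNAs, had 655, 690.2 and 692 at 0 h and 414, 423 and 423 at 2 h (-0.69; difference -2.23, adjusted p = 4.47e-20). Both had gone below their 0 h level without overlap, as had JUN (-0.46). FOSB, in contrast, was still above it: 1436, 1403 and 902 at 0 h and 2727, 3351 and 2121 at 2 h (1.13, adjusted p = 0.000558), as were EGR3 (1.09), the nuclear receptor genes NR4A1 (0.95) and NR4A2 (0.89), MYC (0.32), SGK1 (0.62), and IER5 (0.88). Several of these rose less than in MB468, with differences of -1.02 for FOSB, -1.86 for EGR3, -1.81 for NR4A1, and -2.77 for NR4A2, while IER5 had -0.20 (adjusted p = 0.345). For FOSB, EGR3, NR4A1, and NR4A2, replicate 3 was the lowest library at 0 h and again at 2 h. None of these 4 was called in the fit of only the groups compared, and NR4A1 and NR4A2 were called in 11 and 10 of their 17 alternatives, not with spike-in scaling, without 0 h replicate 3, or without 2 h replicate 2. The 0 h levels were not the same in both lines for all of these genes, a difference that was not tested: NR4A1 had 6001, 5640 and 3202 normalised counts at 0 h in R8 and 2816, 1937 and 2292 in MB468.

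Feedback inhibitors of MAP kinase signalling differed as well. Of 15 tested DUSP, Sprouty, and SPRED genes, 5 were higher and 1 lower at 2 h in R8, and 12 and 0 in MB468. Over all genes, 4.37% were called in R8 and 16.3% in MB468. The response was lower in R8 for 8 and higher for 0, where 5.07% of all genes were called. DUSP5, a phosphatase of nuclear ERK, had 744, 683 and 722 at 0 h and 1123, 1084 and 893 at 2 h (0.54) and differed by -0.84; SPRY2 fell (-0.32) and differed by -0.84. Of 14 Krüppel-like factors, 1 was higher and 2 lower, 21.4% against 4.37% of all genes. The response was lower in R8 for 7, KLF10 among them (-0.24 in R8, difference -1.65, adjusted p = 4.46e-18). GADD45B, a stress gene, had 2117, 2307 and 2191 and 1875, 1856 and 1882 in R8 and 1696, 1663 and 1920 and 4541, 4844 and 4468 in MB468 (difference -1.63). TRIB1 and ZFP36L1, neither called in R8 (-0.11 and 0.10), differed by -1.34 and -1.16. With spike-in scaling the counts of lower responses became 1 of 15 and 3 of 14, and the R8 counts became 1 higher and 0 lower for the feedback inhibitors and 0 and 0 for the Krüppel-like factors. In the fit of only the groups compared, 5 of the 15 feedback inhibitors had the lower response.

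**Figure D4:**
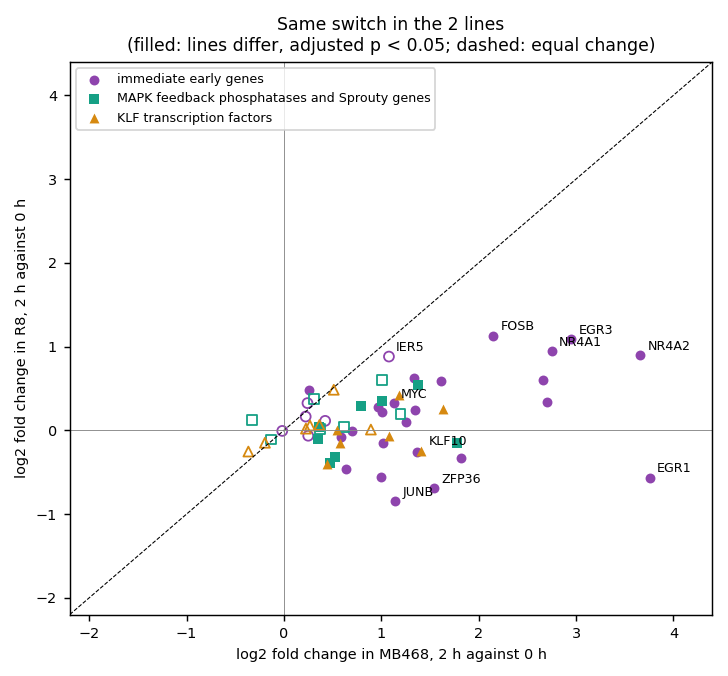
Log2 fold change from 0 h to 2 h in R8 (vertical axis) and in MB468 (horizontal axis) for immediate early genes, MAP kinase feedback genes, and Krüppel-like factors; filled symbols mark genes whose response differed between the lines (adjusted p under 0.05) and the dashed line marks equal change. Most symbols lie below the dashed line, EGR1 farthest of all, with -0.57 in R8 and 3.76 in MB468.

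In the integrated stress response, ATF4 and CHOP induce amino acid and feedback genes. At 2 h in R8, the listed genes had log2 fold changes of -0.24 to 0.64. Of 33 tested, 4 rose and 1 fell, 15.2% against 4.37% of all genes (median 0.06). The response was lower than in MB468 for 11 and higher for 0, where 5.07% of all genes were called. At 0.5 h in R8, 17 were higher and 4 lower than at 0 h, and at 12 h 5 and 23. Of all 14741 genes, 4967 and 9036 were called at these times. CHAC1, which breaks down glutathione, had 228, 243 and 225 normalised counts at 0 h and 333, 359 and 314 at 2 h (0.54, adjusted p = 0.00045), against 113, 131 and 126 and 824, 981 and 1062 in MB468 (difference -2.41). ATF3 rose (0.64), as did CEBPB (0.43) and STC2 (0.40), called in 11, 15, and 12 of their 17 alternatives. ATF3 and STC2 were not called in the fit of only the groups compared, without 0 h replicate 3, or without 2 h replicate 2. SLC38A2, a transporter that takes up Met among other amino acids, fell (-0.24, adjusted p = 0.0482, edgeR quasi-likelihood, called in 7 of its 17 alternatives). SESN2, DDIT3 (CHOP), and DDIT4 were not called in R8 (0.07, 0.04, and -0.14) and differed from MB468 by -2.22, -1.68, and -2.02. The biosynthetic targets ASNS, PSAT1, and PHGDH had 0.05, 0.11, and 0.06. The list's 5 calls became 2 without 2 h replicate 2 and 2 without 0 h replicate 3. With spike-in scaling 1 rose and 0 fell in R8, and the difference between the lines became 6 lower and 2 higher.

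In the other direction, the difference between the lines had its smallest p in genes that fell in MB468 and were not called in R8. URB2, a factor of ribosome biogenesis, had 1572, 1593 and 1666 normalised counts at 0 h and 1500, 1580 and 1588 at 2 h in R8, and 2032, 2155 and 2104 and 1024, 1125 and 1154 in MB468 (difference 0.88, adjusted p = 1.65e-12). MARS2, the mitochondrial methionyl-tRNA synthetase, had 606, 569 and 596 and 689, 713 and 677 in R8, and 903, 1071 and 908 and 452, 558 and 558 in MB468 (1.12). The 0 h and 2 h libraries were apart in MB468 for both genes, and in R8 those of URB2 overlapped. KLHL9, an adaptor of CUL3 ubiquitin ligases (1.08), ATXN7L3B (0.68), and TSPYL1 (0.60) also fell in MB468 and were not called in R8. In all, 747 genes differed, 323 with the response higher and 424 lower in R8; without MB468 2 h replicate 2 these were 306 and 344, and with spike-in scaling 866 and 65, next to the shift of all genes.

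Most lists of metabolism held no called gene in R8 at 2 h, where 4.37% of all tested genes were called, a share at which lists of this size would hold few calls or none: 0 of 24 for sterol synthesis and uptake, 0 of 28 for fatty acid synthesis, 0 of 34 for beta-oxidation, 0 of 20 for NRF2 targets and glutathione synthesis, and 0 of 19 for sestrins and mTORC1 brake genes. These counts are near the share over all genes and say nothing particular of the lists. PFKFB3, the glycolytic activator, was the 1 of 23 glycolysis and TXNIP-related genes called (0.43, adjusted p = 8.44e-07). Of 35 ribosome biogenesis genes RRS1 rose (0.28) and POLR1A, the largest subunit of RNA polymerase I, fell (-0.19). Of 21 ATF6 and XBP1 targets, 3 rose: HERPUD1 (0.36), XBP1 (0.19), and the chaperone gene HSPA5 (0.15), and of 18 heat shock genes DNAJB1 (0.20) and BAG3 (0.26). Without 2 h replicate 2, and with spike-in scaling, these 2 lists held 0 called genes, and without 0 h replicate 3 they held 1 and 0. The clock genes PER1 (0.77) and PER2 (0.79), repressors of the feedback loop, were called higher with NFIL3 (0.46) and BHLHE40 (0.43), 4 of 20, and NPAS2 lower (-0.29). PER1 and PER2 were not called in the fit of only the groups compared. With spike-in scaling NFIL3, BHLHE40, and NPAS2 were not called. NPAS2 was also not called without 0 h replicate 2 or 2 h replicate 2. Among 20 NF-kB genes, CXCL2 (29.3, 30.2 and 24.8 at 0 h, 69.3, 64.1 and 78.5 at 2 h, 1.30), CXCL3 (1.04), and BIRC3 (0.36) rose. NFKBIZ (-0.91), the feedback inhibitor gene NFKBIA (-0.35), and the chemokine gene CCL2 (-0.36) fell. CCL2 (adjusted p = 0.0454, edgeR quasi-likelihood) was called in 7 of its 17 alternatives. With spike-in scaling the list's 6 calls became 3, without BIRC3, NFKBIA, and CCL2.

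Seen against 0.5 h, the 2 h libraries differed widely: 5207 of 14741 genes differed between 0.5 h and 2 h (35.3%), 2566 higher and 2641 lower at 2 h. The comparison shares the 2 h libraries with the one above, so the values are given side by side only. Of 30 immediate early genes, 17 were lower and 8 higher at 2 h than at 0.5 h (median -0.67), and of 19 keratins 14 were higher and 0 lower (median 0.56). Of 35 ribosome biogenesis genes, 26 were higher and 0 lower (median 0.33), a list with 2 calls against 0 h. Of 35 histone methylation genes, 22 were lower and 2 higher (median -0.24). PLAT had 132, 107 and 106 normalised counts at 0 h, 25.3, 24.2 and 28.2 at 0.5 h, 355, 461 and 306 at 2 h, and 36.7, 34.2 and 25.5 at 12 h. PER2 had 1311 ± 234 at 0 h, 728 ± 88.9 at 0.5 h, 2264 ± 312 at 2 h, and 259 ± 24.7 at 12 h (SD, n = 3). FOSB was at 31.3, 39.9 and 35.9 at 12 h, below all earlier times. With spike-in scaling the 5207 became 2380, 844 higher and 1536 lower.

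**Figure D5:**
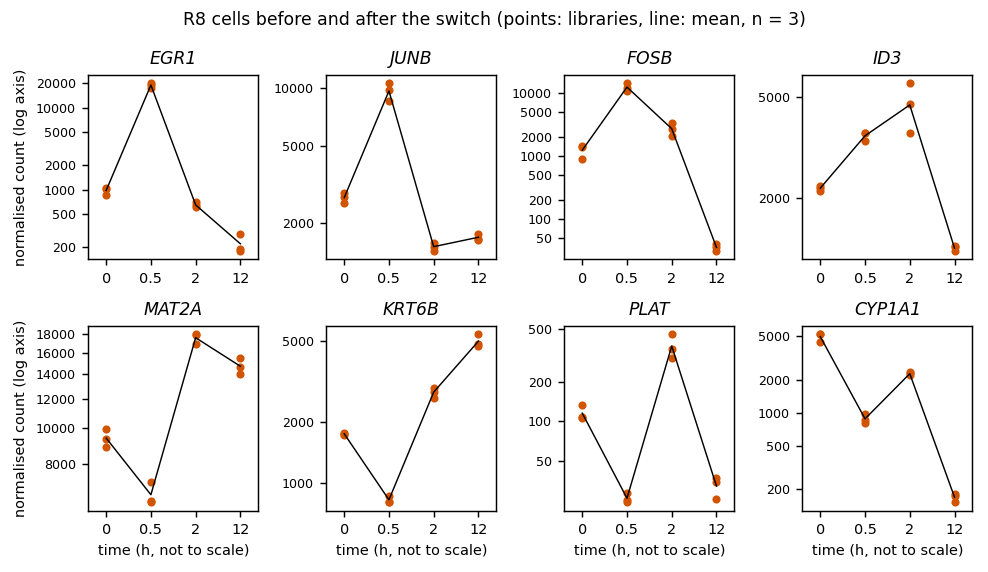
Normalised counts (log axes) of 8 genes in R8 at 0, 0.5, 2, and 12 h (horizontal axes, not to scale); points are libraries and the line joins the means (n = 3). EGR1, JUNB, and FOSB peak at 0.5 h, MAT2A, KRT6B, and PLAT dip at 0.5 h and lie above 0 h at 2 h, and CYP1A1 is below 0 h at each later time.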

How the data were processed

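Poly(A) RNA was sequenced as single-end reads of 100 bases. Per the labels and the study's methods, the authors aligned the reads with HISAT2 2.1.0 to GRCh38 and the spike-in sequences and deposited raw counts per gene from featureCounts (Subread 1.5.3). The annotation release, strand setting, and treatment of multimapping reads are not given in the sources used here, so overlapping and near-identical genes are uncertain. A deposited table of normalised counts and a table with the authors' own comparison (fold changes and p-values) were not used.

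All 24 libraries in 8 groups were fitted together in edgeR 4.0.16 (R 4.3.3) with TMM scaling, after spike-ins were set aside and genes filtered with filterByExpr (minimum count 10, minimum total 15), by robust quasi-likelihood tests with Benjamini-Hochberg adjustment over the 14741 genes, called at 0.05. The contrasts were R8 2 h against 0 h, R8 2 h against 0.5 h, and the difference between the 2 h responses of R8 and MB468. Values of R8 at 0.5 h and 12 h and of MB468 at 2 h, each against 0 h, came from the same fit. The fit was tested on simulated data with known changes. Named genes were the 10 called genes per direction with the smallest p, the 6 per direction with the largest change at a mean of at least 1 CPM and without overlap, the 5 per direction with the smallest p for the difference between the lines, and members of the gene lists; others are said to have been chosen after their values were seen. The comparison and the gene lists were chosen with earlier results of these data known. Alternatives covered scaling, filters, the replicate block, robust fitting, the samples fitted, DESeq2 1.42.0, the threshold, equal depth, and leaving out each library. Promoters and the MAT2A UTR were read from RefSeq (GRCh38.p14) and GENCODE (GRCh38).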

Additional observations from a re-analysis of the deposited data

Results flagged for a closer look

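The response at 2 h differed between R8 and MB468 for 747 genes by a test of the difference itself (edgeR quasi-likelihood, Benjamini-Hochberg). Among the genes named by rule, the log2 difference, R8 minus MB468, was above 0 for MARS2 (1.12), KLHL9 (1.08), URB2 (0.88), ATXN7L3B (0.68), TSPYL1 (0.60), CYP1A1 (0.52), MYEOV (0.50), SPPL3 (0.32), TRIB2 (0.29), and MCL1 (0.23). It was below 0 for ZFP36 (-2.23), JUNB (-1.99), KLF10 (-1.65), GADD45B (-1.63), TRIB1 (-1.34), SOCS3 (-1.28), ZFP36L1 (-1.16), ZNF296 (-1.08), ADM (-0.83), CHAMP1 (-0.32), and SH3BP4 (-0.28). One of the MB468 libraries behind each of these values, 2 h replicate 2, held 1702 CPM on RNAs without a poly(A) tail, and without it 650 genes differed. No group of this design has more than 3 libraries, so no single library was tested as an outlier.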

How the results depend on the processing

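The 644 genes called at 2 h against 0 h became 180 with spike-in scaling, 392 at an adjusted p under 0.01, between 348 and 667 when 1 library was left out, and 134 with 2 h replicate 3 as the only 2 h library, a test that takes the lone library to vary like the other groups and was added after the data were seen. The 747 genes that differed between the lines became 431 at an adjusted p under 0.01 and between 578 and 799 when 1 library was left out. With spike-in scaling they became 931, of which 93.0% had the response higher in R8 against 43.2%. The 5207 genes that differed between 0.5 h and 2 h became 2380 with spike-in scaling (35.5% higher against 49.3%) and between 4293 and 4829 when 1 library was left out. With spike-in scaling the line difference of CHAMP1 became 0.0539, SH3BP4 0.0963, KDM3A 0.0781, DNAJB1 0.0647, and SMURF1 0.088 on the log2 scale, next to a median of 0.38 over all genes; the cause was not tested. Of the named genes called at 2 h against 0 h, none changed direction under the alternatives run, 61 lost their call with spike-in scaling, 38 without 2 h replicate 2, and 24 in the fit of only the groups compared; of those not called, TSPYL1 and KLHL9 changed sign near 0. With the replicate block the counts were 615, 719, and 5139. Same-numbered libraries of 0 h and 2 h deviated from their group means with r of -0.04, 0.47, and 0.39 for replicates 1, 2, and 3 (mean 0.27). Differently numbered ones had a mean r of -0.14, from -0.47 to 0.04. Deviations from a mean of 3 libraries sum to 0, so these values depend on one another. The labels do not say whether the numbers pair the samples, and the main fit did not use them. With 3 libraries a group and depths from 16655060 counts, small changes of low genes were not detectable. CSNK2B, called lower, rests on 1 library at 0 h.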
